A study of Mus musculus with 4 samples.

Results

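The epicardium is the mesothelial sheet that covers the heart, and 10 genes known from it were followed in a culture of heart muscle cells made from mouse embryonic stem cells. The genes are Wt1, Tcf21, Tbx18 and Scx (transcription factors), Aldh1a2 and Aldh1a1 (retinaldehyde dehydrogenases), Upk1b, Upk3b and Msln (proteins of the mesothelial cell surface) and Sema3d (a secreted guidance protein). They were chosen by name, with earlier results of these data known. Each was found through the RefSeq accession of its probe, so 10 of 10 were on the array, each read by 1 probe. RNA came from cardiomyocytes of CGR8, an established mouse embryonic stem cell line, in which a small interfering RNA against Erbb4 (siErbB4, 2 samples) or a scrambled control RNA (siScr, 2 samples) acted for 48 hours. Erbb4 encodes a neuregulin receptor of heart muscle, and its knockdown is the comparison that the design names. Both groups were grown in DMEM-LG with 2% serum and transfected with the same agent. The labels name incubations of 6 and 24 hours and do not tie either to a sample. Titles and transfection labels set the groups, and other fields conflict with them. The siErbB4 samples are described as carrying si-Scr, and siErbB4 replicate 2 has ErbB5 as the target in its source field. All cells derive from 1 line, and the labels do not say what a replicate number stands for or whether the replicates were separate cultures, so the p-values reflect the spread among these 4 samples alone, which may be technical.

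In the embryo the epicardium spreads over the heart from the proepicardium and expresses Wt1, Tbx18 and Tcf21. It makes retinoic acid through Aldh1a2, and some of its cells undergo an epithelial to mesenchymal transition and give rise to cardiac fibroblasts and smooth muscle cells. Mesothelium elsewhere, such as pleura and peritoneum, shares Wt1, Msln, Upk1b and Upk3b with the epicardium, and Wt1 is also used in kidney and gonad.

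Promoters were taken from RefSeq (build GRCm38.p6), which matched 6 of the 10 genes, Tcf21, Tbx18, Aldh1a2, Aldh1a1, Upk3b and Sema3d. The 250 bases before the start are printed for Upk3b and Tcf21, whose signals were lower on both replicate 2 arrays than on both replicate 1 arrays, and for Sema3d, whose signal was higher there. They lie at chr5:136038246-136038495 on the plus strand for Upk3b, at chr10:22820144-22820393 on the minus strand for Tcf21 and at chr5:12382916-12383165 on the plus strand for Sema3d. Capitals mark matches, on either strand, to 4 motifs, the E-box CAGCTG, the T-box element AGGTGT, the TEAD element GGAATG and the GATA element AGATAA. No motif contains another, and no match printed here overlaps another.
Upk3b: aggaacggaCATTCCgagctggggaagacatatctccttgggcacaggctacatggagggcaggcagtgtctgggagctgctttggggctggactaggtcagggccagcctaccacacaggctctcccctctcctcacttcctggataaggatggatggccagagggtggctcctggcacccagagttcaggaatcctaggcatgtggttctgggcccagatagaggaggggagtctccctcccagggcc
Tcf21: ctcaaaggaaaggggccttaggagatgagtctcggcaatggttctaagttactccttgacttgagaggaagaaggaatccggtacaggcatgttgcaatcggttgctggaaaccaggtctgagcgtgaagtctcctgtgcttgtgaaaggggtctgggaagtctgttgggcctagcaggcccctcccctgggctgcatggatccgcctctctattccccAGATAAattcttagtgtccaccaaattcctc
Sema3d: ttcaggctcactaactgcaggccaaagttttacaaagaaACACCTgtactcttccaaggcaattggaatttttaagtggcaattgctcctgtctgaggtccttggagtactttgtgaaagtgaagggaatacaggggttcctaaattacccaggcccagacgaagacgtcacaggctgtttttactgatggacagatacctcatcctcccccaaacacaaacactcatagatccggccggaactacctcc

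Upk3b held 1 TEAD match, Tcf21 1 GATA match and Sema3d 1 T-box match in these windows. The Tbx18 window held 0 matches to the 4 motifs and the Aldh1a2 window 1 T-box match. Aldh1a1 has 2 windows, 1 with a T-box and a TEAD match and 1 with a T-box and a GATA match. Of 32851 promoter windows of the same length, 13.0% held the E-box, 11.8% the T-box element, 12.6% the TEAD element and 9.99% the GATA element. A match is a description of the letters and not a binding site. The GC content of the windows was 60.8% for Upk3b, 52.4% for Tcf21, 46.8% for Sema3d and 77.6% for Aldh1a2.

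Each sample was read on its own 1-colour Agilent array. The processed signal is the brightness of a spot after background subtraction, and log2 values are relative to the array's 75th percentile, which lay between 878 and 989. Between 64.8% and 68.5% of probes were well above background, a flag that the scanner software sets for a spot clearly brighter than its surroundings. All 8 listed cardiomyocyte markers, among them the troponin gene Tnnt2 and the cardiac actin gene Actc1, were well above background on all 4 arrays. The Erbb4 probe was so on 1 array, siErbB4 replicate 2, so it does not check which samples carried the knockdown, and directions are those of the sample labels.

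All 10 epicardial and mesothelial genes were detected on at least some arrays. Of the 10 genes, 7 were well above background on all 4 arrays, Upk3b and Msln on 3 and Tcf21 on 2. The arrays without the flag were of replicate 2, siScr replicate 2 for Msln, siErbB4 replicate 2 for Upk3b and both for Tcf21. To enter the test, a probe had to carry that flag on both siScr arrays or on both siErbB4 arrays. By that filter 9 of the 10 genes were tested, Upk3b through its siScr arrays and Msln through its siErbB4 arrays, and Tcf21 was read from the same fit without the filter.

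**Figure D1:**
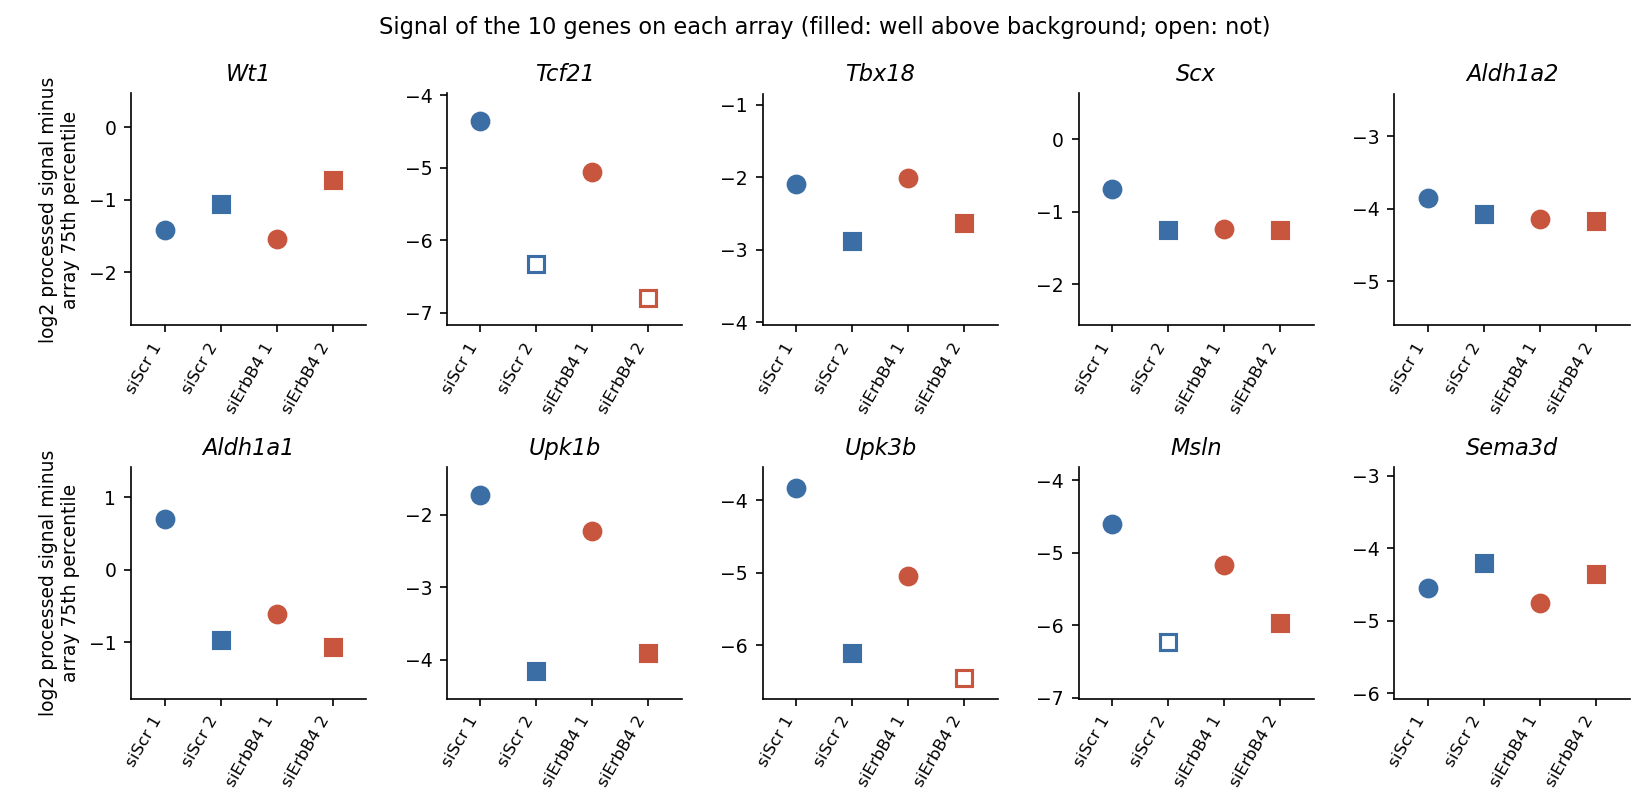
Log2 processed signal relative to the array's 75th percentile (vertical axis) of the 10 genes on each of the 4 arrays (horizontal axis); blue points are siScr, red points siErbB4, circles replicate 1, squares replicate 2, and open symbols were not well above background. Every panel spans the same number of log2 units but has its own position, and for Upk1b both circles, at -1.73 and -2.22, lie above both squares, at -4.16 and -3.91.

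Between siErbB4 and siScr no epicardial or mesothelial gene passed the test. All 10 of the 95% intervals held 0 in this fit, which has no term for the replicate number. With such a term 0 of the 9 tested genes passed, but the standard errors were smaller. That of Upk3b went from 0.95 to 0.24 and that of Aldh1a2 from 0.15 to 0.12. The group means of Wt1 were close, at -1.24 ± 0.26 in siScr and -1.14 ± 0.57 in siErbB4 (log2, SD, n = 2). A feature counted as called when limma's p, adjusted by Benjamini-Hochberg over 20726 features, was under 0.05. Of all features 0% were called, and 1.76% (365) had an unadjusted p below that threshold. Of the 9 tested genes 0 were called, and for 0 of them was the unadjusted p below it. Their median log2 difference (siErbB4 minus siScr) was -0.17 beside -0.014 over all features, with 7 genes below 0 and 2 above, where 52.8% of all features were below 0. For a single gene, the smallest two-sided p of an exact permutation test at this size is 0.333.

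The retinoic acid gene Aldh1a2 had the narrowest interval of the 10 genes. Its processed signal was 68.6 and 52.5 on the siScr arrays and 53.8 and 52.2 on the siErbB4 arrays. After scaling, both siErbB4 arrays lay below both siScr arrays, which held for 1 of the 10 genes and for 15.9% of all features in that direction. The log2 difference was -0.19 (standard error, SE, 0.15), and its 95% interval ran from -0.60 to 0.21.

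The intervals of the mesothelial surface genes were wide. Upk1b gave -0.12 (SE 1.05, 95% interval -3.01 to 2.77), Upk3b -0.77 (SE 0.95, -3.39 to 1.84) and Msln -0.15 (SE 0.65, -1.94 to 1.64). In this fit, which has no term for the replicate number, these intervals hold differences of several fold in either direction. Aldh1a1 gave -0.71 (SE 0.62, -2.42 to 1.01) and the unfiltered fit gave -0.58 for Tcf21 (SE 0.96).

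For the remaining genes the SE was 0.38 or less. Wt1 gave 0.10 (SE 0.34), Tbx18 0.17 (SE 0.38), Scx -0.27 (SE 0.24) and Sema3d -0.17 (SE 0.22). The limma p, adjusted by Benjamini-Hochberg, was 1.00 for each of the 10 genes. The signal of siScr replicate 1 was the highest of the 4 for 7 of the 10 genes. Without it the median difference of the 9 tested genes was 0.13 in place of -0.17. siScr is then left with replicate 2 alone, so this value also takes in the replicate difference.

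**Figure D2:**
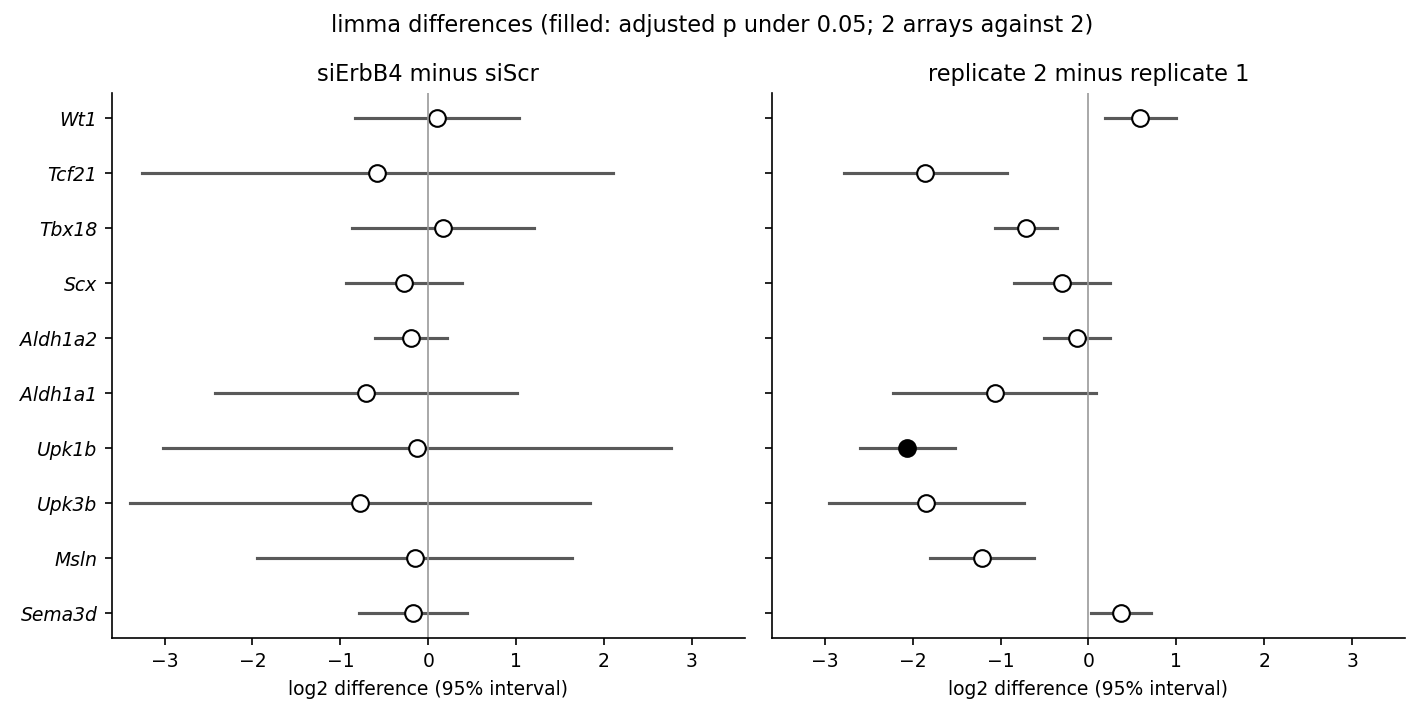
Log2 differences of the 10 genes with limma's 95% intervals (horizontal axis), siErbB4 minus siScr on the left and replicate 2 minus replicate 1 on the right; each side sets 2 arrays against 2, and Tcf21 comes from the fit without the filter. The fit on the left has no term for the replicate number. All 10 intervals on the left hold 0, and on the right only Upk1b, the filled point at -2.06, passed the adjusted threshold.

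The replicate numbers, which the siScr and siErbB4 samples share, separated most of the 10 genes. In both siScr and siErbB4, 8 of the genes were lower on the replicate 2 array and 2, Wt1 and Sema3d, were higher. Of all features, at least 55.4% likewise had the same sign in both groups. That is the share with both replicate 2 arrays on one side of both replicate 1 arrays. Taking the arrays of both groups together, the surface gene Upk1b was 4.17-fold lower in replicate 2 and passed the test. Both replicate 2 arrays lay on one side of both replicate 1 arrays for 8 of the 9 tested genes, 6 lower and 2 higher. Among all 20726 features such separation was found at 55.4%, lower in replicate 2 at 26.0% and higher at 29.4%. By limma, 5.23% of features were called between the replicate numbers, 2.34% lower and 2.89% higher in replicate 2, and 1 of the 9 tested genes was called. The median log2 difference (replicate 2 minus replicate 1) was -0.71 over the 9 genes and 0.019 over all features, of which 47.0% were below 0.

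Upk1b encodes a tetraspanin of the uroplakin family. Its probe was printed as 10 spots per array, the only one of the 10 genes so printed. Its mean processed signal was 299 and 203 on the replicate 1 arrays of siScr and siErbB4 and 49.2 and 62.4 on the replicate 2 arrays. Within an array the spots differed little, with an SD of 0.045 to 0.13 on the log2 scale, and the lowest spot on a replicate 1 array, at 192, was brighter than the highest on a replicate 2 array, at 66.2. The log2 difference was -2.06 (SE 0.21, 95% interval -2.60 to -1.52, adjusted p by limma and Benjamini-Hochberg 0.0227), lower on 2 of 2 replicate 2 arrays. The adjusted p was 0.122 without the filter on dim probes, 0.0515 without siScr replicate 1, 0.0563 without siScr replicate 2 and 0.0518 without siErbB4 replicate 2, in a range of 0.00284 to 0.122 over the alternatives tried. With normexp background correction, which shrinks the differences of dim probes, the log2 difference was -1.28.

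Upk3b, a uroplakin that marks mesothelium, had scaled log2 signals of -3.83 and -5.04 on the replicate 1 arrays and -6.11 and -6.45 on the replicate 2 arrays (siScr, then siErbB4). The replicate numbers did not overlap, and siScr replicate 1 stood highest. Of the 2 replicate 2 arrays, 1 measured it well above background, so the size of the difference rests in part on a signal at background. The log2 difference was -1.84 (SE 0.42, 95% interval -2.95 to -0.73), with an adjusted limma p (Benjamini-Hochberg) of 0.0860. With normexp it was -0.60.

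Msln encodes mesothelin, a surface glycoprotein of mesothelial cells. Its signal was 40.6 and 26.3 in replicate 1 and 11.7 and 14.9 in replicate 2. Both replicate 2 arrays were lower, at levels near the lowest signals called above background, which lay between 9.63 and 12.0, and 1 of the 2 was well above background. The log2 difference was -1.22 (SE 0.23, adjusted limma p by Benjamini-Hochberg 0.0581), and with normexp -0.25.

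Among the transcription factors, Wt1 was the 1 with a higher signal in replicate 2. Wt1, a zinc finger factor of epicardium and mesothelium, gave 369 and 324 in replicate 1 and 422 and 565 in replicate 2. Both replicate 2 arrays were higher, by 0.37 in siScr and by 0.81 in siErbB4 on the scaled log2 scale. The difference was 0.59 (SE 0.15, 95% interval 0.19 to 0.99) and did not pass the threshold, with an adjusted limma p (Benjamini-Hochberg) of 0.111. With normexp the difference was 0.52 and the adjusted limma p 0.0404, in a fit where 1875 of 20726 features were called. Without the filter on dim probes the adjusted limma p was 0.290.

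Tcf21, a bHLH factor needed for the cardiac fibroblast lineage, gave 48.3 and 28.3 in replicate 1 and 10.9 and 8.45 in replicate 2. It was not well above background on either replicate 2 array, so the size of the difference is not well measured. Each replicate 2 signal was raised, where lower, to the lowest signal well above background on its array. Set against the replicate 1 mean, as means of scaled log2 values, the processed signal was then 3.16-fold lower in replicate 2. This is not a lower limit, because probes without the flag can be brighter than that lowest signal. The Upk3b probe was so on siErbB4 replicate 2. The measured means were -4.71 and -6.56. The fold difference also depends on the background subtraction, and with normexp the log2 difference was -0.29. In the fit without the filter its adjusted limma p (Benjamini-Hochberg) was 0.156.

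Tbx18, a T-box factor of the proepicardium, gave 233 and 235 in replicate 1 and 119 and 152 in replicate 2. The 2 replicate 1 arrays were nearly equal and both replicate 2 arrays lower. The log2 difference was -0.71 (SE 0.14, 95% interval -1.06 to -0.35, adjusted limma p by Benjamini-Hochberg 0.0616). The adjusted limma p was 0.0481 with the group as a term in the model, where 7.31% of all features were called. It was 0.0311 with normexp, where 1875 of 20726 features were called. Without the filter on dim probes it was 0.203, and 0 features were called. With an array left out the log2 difference ran from -0.83 to -0.58.

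Scx, the tendon and valve factor scleraxis, which is also used in part of the proepicardium, gave 617 and 402 in replicate 1 and 368 and 394 in replicate 2. Only siScr replicate 1 stood apart, at -0.68 after scaling, and the other 3 lay between -1.26 and -1.23. The log2 difference was -0.30 (SE 0.21), and without siScr replicate 1 it was -0.022.

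Both retinaldehyde dehydrogenase genes had differences below 0 that did not pass the test. Aldh1a2, the main embryonic enzyme of retinoic acid synthesis in mesoderm, gave -0.13 (SE 0.14, 95% interval -0.50 to 0.25), and its replicate numbers overlapped. Aldh1a1 gave signals of 1611 and 620 in replicate 1 and 450 and 447 in replicate 2. The 2 replicate 2 arrays were close to each other, and siScr replicate 1 was the highest array. Its log2 difference was -1.07 (SE 0.44, 95% interval -2.22 to 0.090, adjusted limma p by Benjamini-Hochberg 0.244), and -0.41 without siScr replicate 1. Aldh1a7, a near-identical relative whose RNA the probe may also read, gave 400 and 132 in replicate 1 and 141 and 123 in replicate 2. Whether Aldh1a2 and Aldh1a1 differ in this contrast was not tested.

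Sema3d, whose promoter is printed above with Upk3b and Tcf21, encodes a class 3 semaphorin made by epicardial cells. Its signal was 42.1 and 35.1 in replicate 1 and 47.5 and 45.8 in replicate 2. The replicate 2 arrays were higher by 0.35 in siScr and 0.39 in siErbB4 after scaling. The fit gave 0.37 (SE 0.13, 95% interval 0.027 to 0.71, adjusted limma p by Benjamini-Hochberg 0.192).

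**Figure D3:**
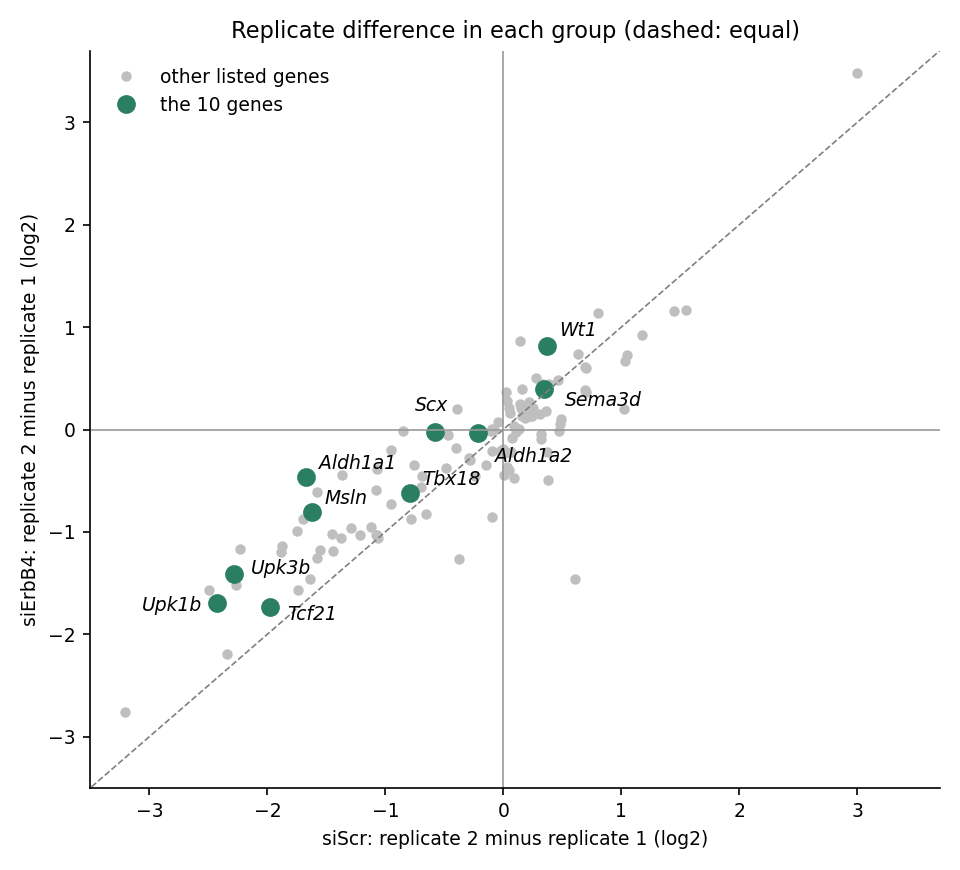
Replicate 2 minus replicate 1 (log2) within siScr (horizontal axis) and within siErbB4 (vertical axis), 1 array against 1 on each axis; green points are the 10 genes and grey points the tested genes of the other lists. All 10 green points have the same sign on both axes, with Wt1 and Sema3d at the upper right and Upk1b, at -2.43 and -1.69, at the lower left. The same sign was found for at least 55.4% of all features.

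The size of the replicate difference was larger in siScr than in siErbB4 for 8 of the 10 genes. The share over all features was not counted, and 1 array, siScr replicate 1, had the highest signal for 7 of the 10 genes. Upk1b differed 5.39-fold between the siScr arrays and 3.23-fold between the siErbB4 arrays, and Aldh1a1 3.18-fold and 1.38-fold. Wt1 and Sema3d were the genes with the larger difference in siErbB4. With 1 array behind each of these values, the difference between the groups was not tested.

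Among 20 further listed genes of the epicardium and mesothelium, those that passed the test were lower in replicate 2. Of them 19 were tested, and 4 fell and 0 rose in replicate 2. Over all features 2.34% were called lower and 2.89% higher in replicate 2, and these shares also stand beside the lists that follow. Those that fell were the sialomucin gene Podxl at -1.06 (SE 0.11), the mesothelial zinc finger gene Bnc1 at -2.03 (SE 0.29), the ligand gene Tgfb2 at -0.84 (SE 0.12) and the integrin gene Itga4 at -0.74 (SE 0.12), of which Tgfb2 and Itga4 were named after their values were seen. Bnc1 was well above background on 3 arrays and was at -0.43 with normexp. The list's median was -0.0046, with 10 genes below 0 and 9 above.

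Genes that make, carry and sense retinoic acid lay on both sides of 0. Of 14 tested, 2 fell and 0 rose in replicate 2. Cyp26b1, which degrades retinoic acid, gave -1.55 (SE 0.12) and the receptor gene Rarg -1.13 (SE 0.14). The median was -0.22, and 12 did not pass, among them Cyp26a1, another enzyme that degrades it, at 1.05 (SE 0.42), a gene picked with its value in view.

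The list of the epithelial to mesenchymal transition and of cells derived from the epicardium lay on 1 side. All 15 genes were tested and all 15 were below 0, with a median of -1.12, and 6 fell and 0 rose. Snai2, a repressor of epithelial genes, gave -1.66 (SE 0.15) and the fibronectin gene Fn1 -1.05 (SE 0.11). Of this list 6 genes are also in the fibroblast list, and Zeb1 at -0.046 (SE 0.11) and Vim at -0.29 (SE 0.12) did not pass. Both were picked for naming with their values in view.

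Of the semaphorin genes set beside Sema3d, receptors were those that passed. Of 11 further semaphorin 3 and receptor genes 2 fell, the receptor genes Nrp2 at -1.32 (SE 0.14) and Plxnd1 at -1.42 (SE 0.15), and 0 rose. Of the tendon genes listed with Scx in view, 4 of 5 were tested and 2 fell, the matrix gene Tnc, encoding tenascin C, at -2.98 (SE 0.15) and the homeobox gene Mkx at -1.37 (SE 0.19). Between siErbB4 and siScr, 0 genes of any of these lists were called.

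Markers of fibroblasts, smooth muscle and cardiomyocytes also differed between the replicate numbers. All 8 fibroblast markers were well above background on all arrays. Their summed signal is in units of the array's 75th percentile, and Col1a1 and Col1a2 weighed most in it. It was 38.6 and 22.4 in replicate 1 and 8.88 and 6.83 in replicate 2 (siScr, then siErbB4). Of the 8 markers 3 fell and 0 rose, the collagen gene Col1a1 at -2.27 (SE 0.29), the matrix gene Postn at -1.89 (SE 0.29) and, named after its value was seen, the receptor gene Pdgfra at -0.73 (SE 0.11). All 8 were lower without overlap, as were 26.0% of all features, and the median was -1.46. The smooth muscle sum was 541 and 429 in replicate 1 and 248 and 241 in replicate 2, with 2 of 4 tested markers lower by the test, Acta2 at -1.22 (SE 0.16) and Tagln at -1.04 (SE 0.14). The other 2, Smtn at 0.41 (SE 0.11), with both replicate 2 arrays higher, and Cnn1 at -0.10 (SE 0.20), did not pass. The cardiomyocyte sum was 1241 and 1211 in replicate 1 and 1614 and 1449 in replicate 2, and 2 of 8 markers rose, Nppa at 1.31 (SE 0.19) and Ryr2 at 0.69 (SE 0.11).

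The summed level of the 10 epicardial and mesothelial genes themselves was 3.44 and 2.07 in replicate 1 and 1.76 and 1.87 in replicate 2, so it was higher on siScr replicate 1 than on the other 3 arrays. Bright genes weigh most in such a sum. On siScr replicate 1 Aldh1a1 had the highest signal, at 1611, and Scx the next, at 617. Fewer cells of a type and less RNA per cell cannot be told apart in bulk RNA, and the part of these marker genes in the differences of the 10 genes was not tested.

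The remaining marker lists held few calls. Of 3 tested blood markers 1 rose, the lysozyme gene Lyz2 at 3.24 (SE 0.25), and of 5 tested visceral endoderm and liver markers 1 rose, the fetoprotein gene Afp at 0.65 (SE 0.11). Of the 4 tested endothelial markers 0 were called, with Cdh5 at -1.51 (SE 0.30), Tek at -0.90 (SE 0.36), Kdr at 0.30 (SE 0.16) and Pecam1 at -0.062 (SE 0.14). The endothelial sum, in which Kdr weighed most, was 3.42 and 3.30 in replicate 1 and 4.51 and 3.47 in replicate 2. Of the 7 stem cell markers 0 were called, with Nanog at 0.23 and Dppa5a at -0.22, and of the 5 epithelial markers 0, with Krt7 at -0.29 and Krt8 at 0.28. The kidney and gonad markers, listed because those organs also use Wt1, summed to 0.25 and 0.20 in replicate 1 and 0.19 and 0.20 in replicate 2. Pax2 and Amh were not well above background on any array, and 0 of 4 tested markers were called, with Six2 at -0.43. Apoa1, Emcn, Tnmd, Cyp26c1 and the uroplakin gene Upk3a were likewise not well above background on any array.

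**Figure D4:**
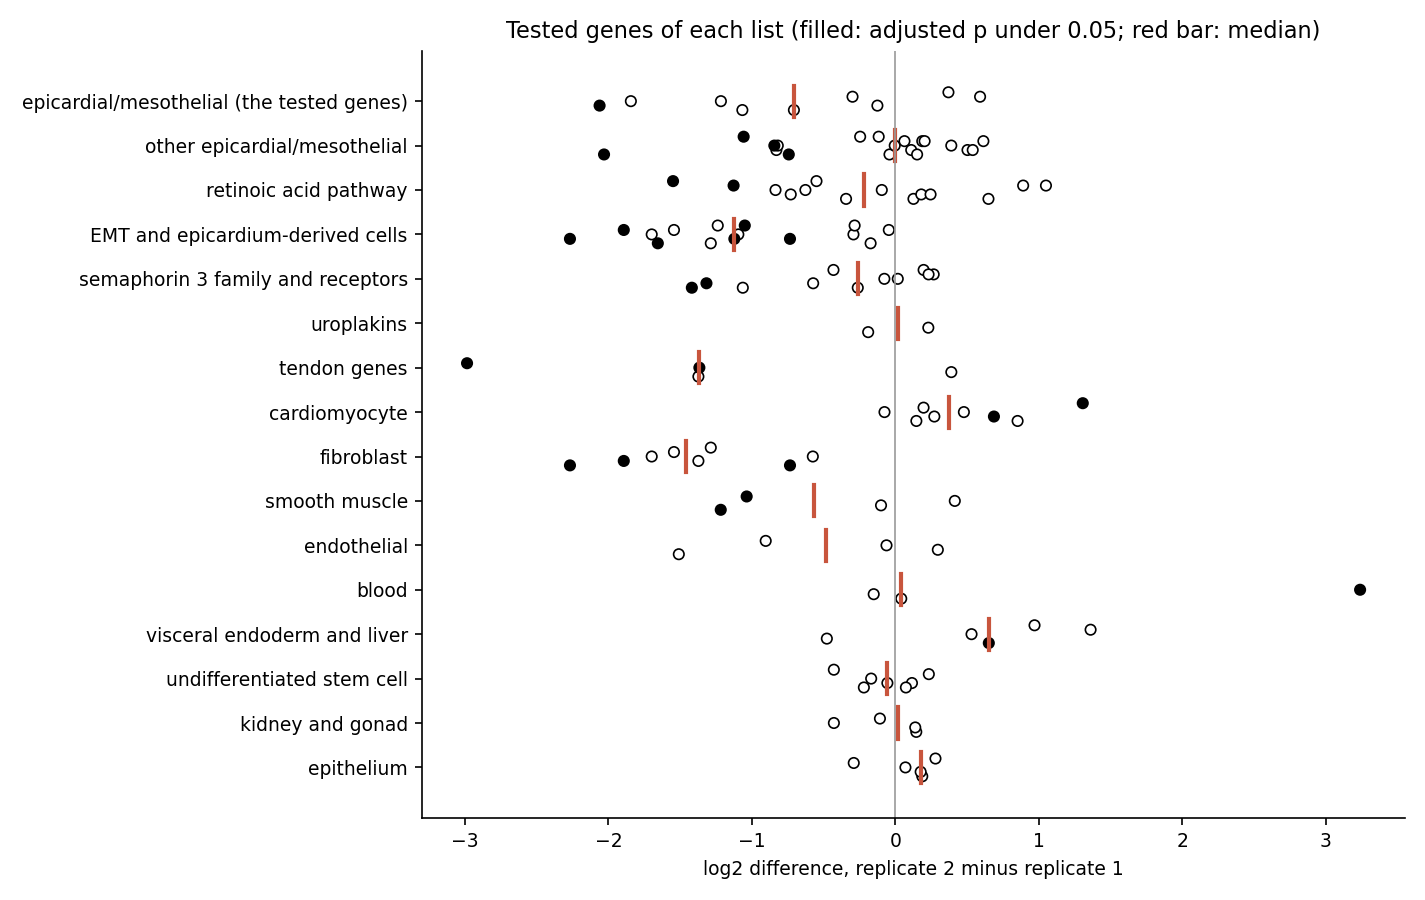
Log2 difference of replicate 2 minus replicate 1 (horizontal axis) for each tested gene of each list (vertical axis); filled points passed the adjusted threshold and red bars are list medians. All 8 fibroblast markers and all 15 genes of the epithelial to mesenchymal transition list lie below 0, and 7 of 8 cardiomyocyte markers lie above 0.

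The uroplakin relatives of Upk1b and Upk3b gave no calls. Upk1a was at -0.19 (SE 0.24) and Upk2 at 0.23 (SE 0.21) between the replicate numbers, with both replicate numbers overlapping for each.

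Genes most like a member were sought for the 4 tested members whose range over the arrays was 1 or more on the log2 scale, by the Euclidean distance between values centred per gene over 4 arrays, among 14984 named genes. Among those nearest to Upk1b were the Wnt ligand gene Wnt4 at a distance of 0.055 and the oxysterol enzyme gene Ch25h at 0.13. Nearest to Msln were the proteoglycan gene Lum at 0.077, the forkhead gene Foxf1 at 0.080 and the annexin gene Anxa1 at 0.10. Nearest to Upk3b were the metalloprotease gene Mmp2 at 0.10, Clec4a1 at 0.17 and Hcls1 at 0.19. Nearest to Aldh1a1 were Serpinf1 at 0.12, Spire2 at 0.14 and Fam20a at 0.18. With 4 arrays behind each distance these are descriptions.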

How the data were processed

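Total RNA of 4 samples was labelled with Cy3 from 200 ng and read on 1-colour Agilent arrays, per the labels' protocols. Per the submitters' processing notes, scans went through Agilent Feature Extraction 10.7.1.1. The authors deposited its processed intensity values, which were background-subtracted and detrended within each array, per the file headers. The authors also deposited a table of log2 values, and it equalled the scaling used here (correlation 1, largest difference 0.0029, column medians -3.86 to -3.81), so scale and centring are known.

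Of 44397 spots 1377 control spots and then 12 of 39429 probes with outlier flags were left out, and 0 spots were saturated. From each log2 signal the 75th percentile of its array was subtracted, and spots of a probe were averaged. The filter kept 25690 probes that both siScr or both siErbB4 arrays flagged as well above background, with the brightest probe per gene, leaving 20726 features, of which 14993 had a gene symbol through RefSeq. The contrasts were fitted with limma 3.58.1 in R 4.3.3 (lmFit, eBayes, two-sided, Benjamini-Hochberg, threshold 0.05), with no replicate block. The number of arrays, 2 per group, limits the precision.

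The 10 genes and the other lists were chosen with earlier results of these data known. The text names every member, Erbb4, the 2 genes of lowest p per list in the replicate contrast and the 3 genes most like each tested member with a range of 1 or more, except for items that are not reported here. Alternatives were normexp background correction (offset 50), quantile normalization, the authors' table, other filters, the mean of a gene's probes, each array left out and the other label as a term.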

Additional observations from a re-analysis of the deposited data

Results flagged for a closer look

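For 4 of the 10 genes the difference between siErbB4 and siScr had opposite signs in the 2 replicate numbers, with 1 array against 1 in each, and the difference between them was not tested. The share of all features with opposite signs was not counted, so 4 of 10 cannot be read as particular to these genes. For 29.0% of features both siErbB4 arrays lay on 1 side of both siScr arrays, which gives the same sign in both numbers. Wt1 was at -0.12 in replicate 1 and 0.32 in replicate 2, which differ by 0.44 on the log2 scale. Upk1b was at -0.49 and 0.25, which differ by 0.74. Msln was at -0.56 and 0.25, which differ by 0.81. Scx was at -0.55 and 0.0034, which differ by 0.56.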

How the results depend on the processing

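Between siErbB4 and siScr, 0 features were called under each of the 11 alternatives, and so were 0 of the genes that entered each fit (7 to 10, depending on the filter). With the replicate block, limma called 0, while features with an unadjusted p under 0.05 went from 365 to 1546 and the SE of Upk1b from 1.05 to 0.21. Same-numbered samples deviated together. The deviations of siScr replicate 1 and siErbB4 replicate 1 from their group means had a correlation of 0.68 over 20726 features. With 2 arrays per group the replicate 2 deviations mirror these and add no further evidence. The labels give the numbers no meaning of their own. The sign of this difference turned in 16 of 106 alternative values, over 9 genes and never for Aldh1a2. Many of the 106 could not turn. With 1 probe per gene, other filters, the mean of probes and the other label as a term return the same difference. The authors' table equals the scaling used here. Only normexp, quantile normalization and arrays left out could turn a sign, so the 106 overstates how steady the signs are. Msln was at 0.0093 with normexp, and all the other reversals came from leaving out an array. That leaves the replicate numbers unbalanced between the groups, so those values also take in the replicate difference. Within the replicate numbers, with 1 array against 1, the signs were opposite for 4 of the 10 genes, a share not counted over all features. Over arrays left out, Wt1 ranged from -0.30 to 0.51, Tcf21 from -1.57 to 0.41, Tbx18 from -0.23 to 0.56, Aldh1a1 from -1.54 to 0.13, Upk3b from -1.91 to 0.37, Upk1b from -1.34 to 1.09, Msln from -0.96 to 0.66, Scx from -0.56 to 0.014 and Sema3d from -0.37 to 0.026. The replicate contrast called 1084 features, and 1875 with normexp, 0 without the filter and 0 to 1539 with an array left out (0 without siScr replicate 1 or siScr replicate 2, 72 without siErbB4 replicate 2). The genes' median of -0.71 was -0.28 with normexp, -0.30 with probes well above background on all 4 arrays and -0.83 to -0.41 with an array left out. The 1 called gene became 3 with normexp, 0 without the filter, 2 with probes well above background on all 4 arrays, 3 with the group as a term, 2 with a filter by replicate number added after seeing the data, which Tcf21 passes only through the arrays where it is bright, and 0 to 4 with an array left out. The replicate difference turned in 2 of 116 values, both of Aldh1a2, at 0.015 with normexp and in a range of -0.27 to 0.017 with an array left out. Here too, many of the 116 could not turn, for the same reason. The cause was not tested. Signal near background limits Tcf21, Upk3b and Msln on replicate 2 arrays, where normexp gave differences of -0.29, -0.60 and -0.25.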
